A study of Mus musculus with 4 samples.

Results

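Enteroendocrine cells are the hormone-producing cells of the gut epithelium, and 10 of their genes were followed here: the L-cell hormones Pyy, Gcg and Insl5, the enterochromaffin genes Tph1 and Tac1, the granins Chga and Chgb, and the peptide hormones Cck, Sst and Nts. They were picked by symbol from a table of 36144 gene names, which held all 10. With 2 mM sodium butyrate, 9 of the 10 had lower scaled counts than untreated colonoids at 72 h, where 49.7% of all genes tested were lower, and Nts was the exception. At 48 h the genes did not move as a group: Tph1 was higher by 1.22 on the log2 scale, and Chgb and Nts were also higher. Pyy, Gcg and Chga differed from untreated by less than counting error, and Insl5, Cck and Tac1 were lower. Sst had to be lower with butyrate to pass the count filter as it did. Without Sst, 8 of 9 genes were lower at 72 h.

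The data are bulk RNA-seq of mouse colonoids, which are 3-dimensional cultures of colonic epithelium, at passage 3. Cultures were untreated or given butyrate, a short-chain fatty acid that gut bacteria make from fibre, for 48 h or 72 h (day 2 and day 3 in the labels), and each of the 4 conditions was sequenced as 1 library. The labels give wild-type males aged 24 weeks, whereas the study's methods describe organoids from a Hes1-GFP reporter mouse; all 4 groups share that source and the medium, which held EGF, Noggin, R-spondin, the GSK3 inhibitor CHIR99021 and the ROCK inhibitor Y-27632. No replicate was sequenced, so no difference could be set against replicate error, no p-value was computed, and the intervals given are 95% intervals for counting error only.

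Enteroendocrine cells arise from crypt stem cells through progenitors that express Neurog3, and mature cells are classed by what they store. L-cells release peptide YY and glucagon-like peptides, which slow gut transit, limit appetite and promote insulin release, and colonic L-cells also make the relaxin-family peptide INSL5. Enterochromaffin cells make serotonin, for which tryptophan hydroxylase 1 (Tph1) is the rate-limiting enzyme, and may store the tachykinins encoded by Tac1. Chromogranins A and B (Chga, Chgb) are acidic proteins of the secretory granule found across these cell types. Cholecystokinin (Cck), somatostatin (Sst) and neurotensin (Nts) mark further sets of enteroendocrine cells, and a given cell can make several hormones.

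The sequences upstream of the L-cell hormones, of Tph1 and of Chgb are shown because these genes carry the contrasts described here: 3 hormones of the same cell type, an enzyme that differed from them at 48 h, and the most abundant granin. Each window spans 250 bases before to 50 bases after a RefSeq start site in GRCm38.p6, the one nearest to the 5′ end of the gene in GENCODE, and reads 5′ to 3′ on the strand of the gene. That start lies at the GENCODE 5′ end for Pyy and Tph1, 3 bases from it for Gcg, 114 for Insl5 and 364 for Chgb. Capitals mark every match, on either strand, to the 5 short motifs that are spelled out after the sequences.
Pyy, chr11:102107783-102108082, minus strand: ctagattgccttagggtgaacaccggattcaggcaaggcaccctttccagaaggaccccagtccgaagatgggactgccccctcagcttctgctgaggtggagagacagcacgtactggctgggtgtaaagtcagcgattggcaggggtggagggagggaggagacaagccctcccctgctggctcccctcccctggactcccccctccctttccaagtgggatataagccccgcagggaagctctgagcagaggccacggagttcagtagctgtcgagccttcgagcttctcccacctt
Gcg, chr2:62483604-62483903, minus strand: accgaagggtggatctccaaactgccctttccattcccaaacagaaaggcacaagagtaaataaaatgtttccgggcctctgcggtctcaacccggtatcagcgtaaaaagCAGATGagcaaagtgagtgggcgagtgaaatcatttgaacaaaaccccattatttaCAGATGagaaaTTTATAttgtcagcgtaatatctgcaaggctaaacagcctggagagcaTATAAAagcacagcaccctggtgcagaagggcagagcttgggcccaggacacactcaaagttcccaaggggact
Insl5, chr4:103026679-103026978, minus strand: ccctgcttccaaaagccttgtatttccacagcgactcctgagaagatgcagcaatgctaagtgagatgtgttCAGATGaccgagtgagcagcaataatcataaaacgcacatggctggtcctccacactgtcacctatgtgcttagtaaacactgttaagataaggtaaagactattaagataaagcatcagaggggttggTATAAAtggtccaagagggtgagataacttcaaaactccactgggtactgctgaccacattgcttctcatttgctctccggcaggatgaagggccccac
Tph1, chr7:46672488-46672787, minus strand: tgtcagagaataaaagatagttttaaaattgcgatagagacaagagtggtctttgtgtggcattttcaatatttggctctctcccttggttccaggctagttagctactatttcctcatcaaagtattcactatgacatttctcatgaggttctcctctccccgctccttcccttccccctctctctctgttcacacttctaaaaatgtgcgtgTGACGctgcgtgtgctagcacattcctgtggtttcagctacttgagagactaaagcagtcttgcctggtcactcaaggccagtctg
Chgb, chr2:132781392-132781691, plus strand: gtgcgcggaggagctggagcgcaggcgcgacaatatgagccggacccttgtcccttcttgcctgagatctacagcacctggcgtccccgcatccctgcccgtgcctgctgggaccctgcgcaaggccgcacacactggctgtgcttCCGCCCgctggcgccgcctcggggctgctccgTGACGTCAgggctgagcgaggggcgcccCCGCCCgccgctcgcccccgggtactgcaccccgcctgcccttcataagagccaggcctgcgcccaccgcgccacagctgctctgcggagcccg

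All 10 genes had a window in the RefSeq table. TATAAA, the form of the TATA box searched for, was found in those of Gcg (first base at −72 and −24 from the start), Insl5 (−49) and Chga (6 bases after it), and in 13.6% of all 32851 windows. The start used for Chga lies 28 bases upstream of the GENCODE 5′ end, so this match lies before that end. The cAMP response element TGACGTCA occurred in Chgb (−72) and Sst (−48) and in 1.79% of all windows, and its half-site TGACG, which the full element also contains, in 7 of the 10 genes, Tph1 (−36) among them, and in 20.8% of all windows. The E-box CAGATG was present in Gcg, Insl5, Cck and Tac1 and in 17.2% of all windows, and the GC box GGGCGG in Chga, Chgb and Tac1 and in 35.7%. None of these 5 exact strings was found in the Pyy window, and variants, such as the tataag that it holds, were not searched for. These matches describe sequence, and no binding was measured.

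Library totals lay between 20790225 and 24207840 counts, and the 10 genes together took 0.0369% and 0.0445% of the total in untreated cultures (48 h, then 72 h) and 0.0443% and 0.0256% with butyrate. Counts were divided by DESeq2 size factors to give normalised counts, and fold changes were taken after adding 1. A filter of over 10 counts in 2 or more libraries left 13979 names, 13977 of them with a name listed once. All 10 genes passed, although Sst did so only through the 2 untreated libraries. The labelled tissue was checked first: 8 colonic epithelial markers, among them Epcam and Cdx2, had between 2706 and 40538 counts in every library. Some of the 10 genes are also made by enteric neurons, and of 9 neuron and glia markers Hand2, Sox10 and S100b were at 0 in all 4 libraries. The summed normalised count of that list was 73.6 and 80.0 without butyrate (48 h, then 72 h) and 66.2 and 107 with it.

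Per kb of exon, the granin Chgb was the most abundant of the 10 genes in every library, at 164 TPM (counts per kb of exon, scaled to the same sum in each library) in untreated colonoids at 48 h. Gcg followed at 97.2 TPM, Chga at 62.7, Pyy at 57.8 and Insl5 at 40.7, then Nts at 18.3 and Cck at 10.8. Among the 10 genes, the 3 L-cell hormones therefore stood above Nts, Cck and Sst in this library. Sst (1.69 TPM), Tph1 (1.49) and Tac1 (0.815) were low, and each of these 3 had an interval that overlapped that of its neighbour in the order, as did Chga and Pyy. With butyrate at 48 h the intervals of Insl5 and Nts (29.2 TPM) overlapped. In butyrate-treated colonoids at 72 h the order changed in the middle: Nts, at 30.1 TPM, stood above Pyy at 23.2 and Insl5 at 15.7, with the intervals of Nts and Pyy overlapping slightly (27.0 to 33.6 and 19.3 to 27.6). Exon lengths came from GENCODE and differ by gene, so levels of genes whose transcripts use fewer exons are understated; Tac1 was 0.815 TPM over 3399 bases of exon and 2.83 TPM over the 980 bases of its first listed transcript.

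**Figure D1:**
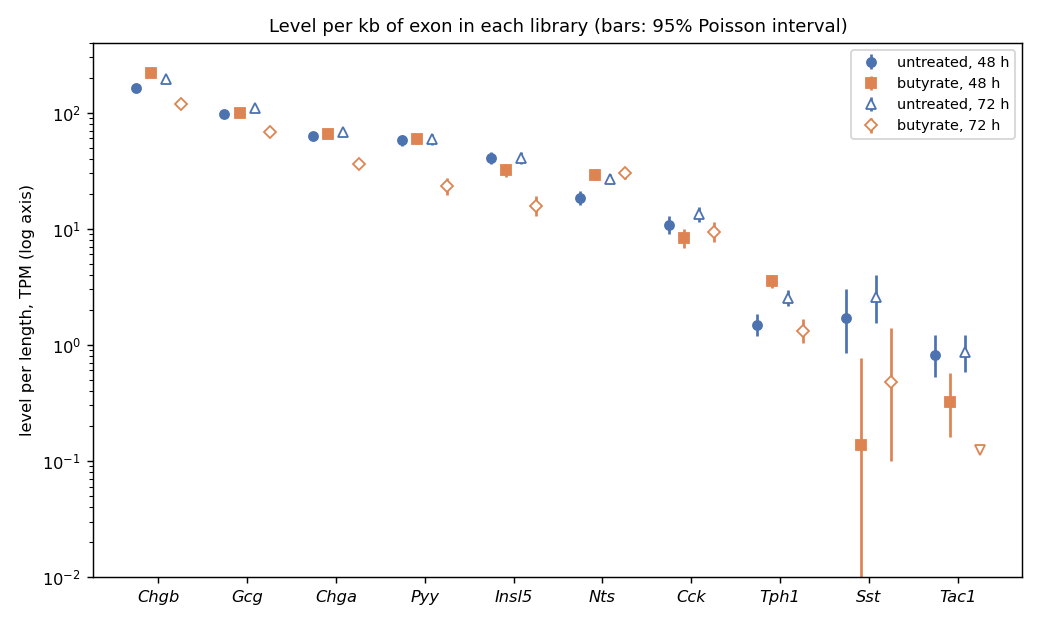
Level per kb of exon (TPM, log axis) of each gene in the 4 libraries, with filled symbols for 48 h and open symbols for 72 h; bars are 95% Poisson intervals, and the downward triangle is the upper bound for Tac1, which had 0 counts. Chgb lies on top in every library, and Nts is above Pyy only in butyrate-treated colonoids at 72 h.

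Butyrate was compared with untreated colonoids at each time. At 48 h, 2 of the 10 genes (Sst and Tac1) were at least 2-fold lower, against 3.08% of the 13977 genes tested, and 1 (Tph1) was at least 2-fold higher, against 6.94%. By the weaker criterion of a counting interval that excludes 0, which deep counts meet easily, 4 of 10 were lower (31.3% of all genes) and 3 were higher (29.3%). In direction alone 4 of 10 were lower, and 51.3% of all genes. Sst had to be lower with butyrate to pass the filter as it did, and without it 1 of 9 genes was at least 2-fold lower and 3 of 9 were lower with an interval excluding 0. The median log2 fold change of the 10 was 0.03, and that of all genes tested −0.01, so at this time the middle of the group lay close to that of all genes. In bulk RNA, fewer cells of a type and less RNA per cell cannot be told apart, and this holds for each difference given here.

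At 72 h, 6 of the 10 genes (Pyy, Insl5, Chga, Sst, Tph1 and Tac1) were at least 2-fold lower with butyrate, against 3.78% of all genes tested, and 0 were at least 2-fold higher, against 4.53%. With an interval excluding 0, 9 of 10 were lower (26.4% of all genes) and 0 were higher (25.9%). In direction alone 9 of 10 were lower, against 49.7% of all genes. With total count scaling Chga (−0.98) and Tph1 (−0.9991) lay just short of 2-fold, which left 4 of 10. Without Sst, 5 of 9 were at least 2-fold lower and 8 of 9 were lower with an interval excluding 0. The median of the 10 was −1.04, beside 0.0025 over all genes. The genes share the same pair of libraries, and several are made by the same cells, so the 10 values are not 10 independent measurements.

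**Figure D2:**
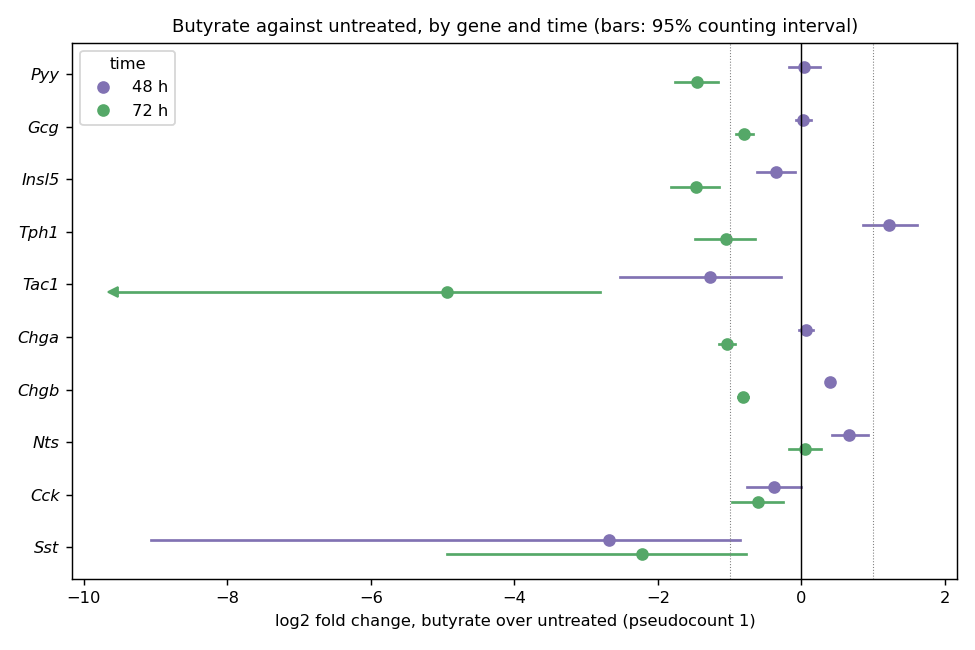
Log2 fold change of butyrate over untreated for each gene at 48 h (purple) and 72 h (green), with 95% counting intervals; dotted lines mark a 2-fold change, and the arrow marks an interval with no lower bound. All genes but Nts lie left of 0 at 72 h, whereas at 48 h they lie on both sides.

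Among the L-cell hormones, Pyy was counted 329 and 381 times in untreated cultures (48 h, then 72 h) and 381 and 127 times with butyrate. The butyrate library at 72 h stood apart from the other 3, which were alike. On the log2 scale the difference from untreated came to 0.04 (−0.18 to 0.26) at 48 h and, a day later, to −1.45 (−1.76 to −1.16), the latter a level 2.74-fold lower. Pyy lies on chromosome 11 at 102106676-102107832 in GRCm38 (the build of all positions given), on the minus strand, and its window as printed held none of the exact strings searched for.

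Insl5 was counted 266 times untreated and 235 times with butyrate at 48 h, and 302 and 99 times at 72 h, in the same order of untreated and butyrate. The butyrate library was the lower at both times. On the log2 scale the difference from untreated came to −0.35 (−0.61 to −0.09) at 48 h and, a day later, to −1.47 (−1.82 to −1.15), and the 72 h change was nearly the same size as that of Pyy. The gene lies on chromosome 4 at 103017872-103026842.

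Gcg, the proglucagon gene from which glucagon-like peptides are cut, was counted 1310 times untreated and 1505 times with butyrate at 48 h, and 1688 and 891 times at 72 h. On the log2 scale the difference from untreated came to 0.03 (−0.08 to 0.14) at 48 h and, a day later, to −0.79 (−0.91 to −0.67), 1.73-fold lower. The difference was smaller than that of Pyy. The count ratio of Pyy to Gcg, which needs no scaling, was 0.251 and 0.253 at 48 h, and 0.226 and 0.143 at 72 h. Butyrate shifted this ratio by 0.01 on the log2 scale at 48 h (−0.23 to 0.25) and by −0.66 at 72 h (−0.97 to −0.35), so the 2 hormones of the same cell type differed beyond counting error at 72 h only. The ratio of Pyy to Insl5 was 1.24, 1.62, 1.26 and 1.28 in the order untreated and butyrate, 48 h before 72 h; it was higher with butyrate at 48 h, by 0.39 (0.06 to 0.72), and its change at 72 h was 0.02 (−0.41 to 0.46). Gcg lies on chromosome 2 at 62474530-62483650.

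**Figure D3:**
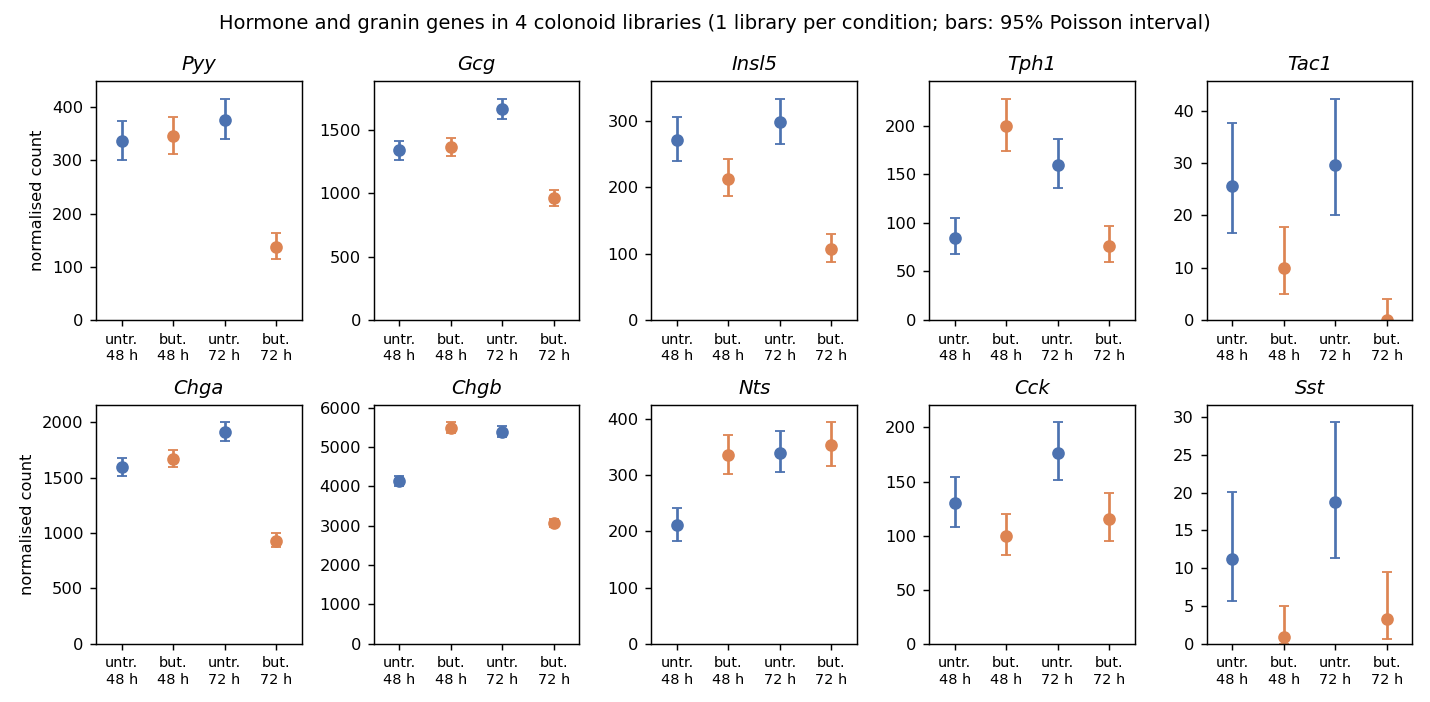
Normalised counts (count divided by the DESeq2 size factor, linear axes from 0) of the 10 genes in untreated (blue) and butyrate-treated (orange) colonoids, 1 point per library with its 95% Poisson interval. Pyy, Gcg, Insl5, Chga and Chgb are lowest in the butyrate library at 72 h, Tph1 is highest in the butyrate library at 48 h, and Nts is lowest in the untreated library at 48 h.

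Tph1 differed from the L-cell hormones at 48 h. It was counted 83 and 162 times in untreated cultures (48 h, then 72 h) and 220 and 71 times with butyrate, so the order of the conditions was opposite at the 2 times. On the log2 scale the difference from untreated came to 1.22 (0.86 to 1.62) at 48 h and, a day later, to −1.05 (−1.48 to −0.65). The difference between the 2 changes, −2.28 (−2.82 to −1.74), was among the 10 genes exceeded only by that of Tac1, which rests on a count of 0. Tph1 was also the gene that differed most between the untreated libraries, by 0.91 (0.52 to 1.31) from 48 h to 72 h. The gene lies on chromosome 7 at 46644641-46672537.

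Tac1, the other enterochromaffin gene, was counted 25 times untreated and 11 times with butyrate at 48 h, and 30 and 0 times at 72 h. Both butyrate libraries were below both untreated ones. The log2 fold change at 48 h was −1.27 (−2.53 to −0.28). At 72 h its ratio to untreated was at most 0.143 by the counting interval. At 48 h, Tph1 and Tac1 thus differed from untreated in opposite directions, each with an interval excluding 0. Tac1 is also a neuronal gene, and the neuron and glia list was at 107 normalised counts in the butyrate library at 72 h, its highest value, while Tac1 was at 0 there. The gene lies on chromosome 6 at 7554879-7565834.

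The serotonin pathway beyond Tph1 was given by 7 listed genes, of which 5 passed the filter and Slc18a2 and Tph2 had at most 8 counts in a library. Where a pair of values is given for a gene, they are log2 fold changes for 48 h and then 72 h. At 48 h, 3 of the 5 were higher with an interval excluding 0 and 1 was lower, with a median of 0.26, and at 72 h 4 were lower and 0 higher, with a median of −0.42. The shares of all genes were 29.3% higher and 31.3% lower at 48 h, and 25.9% and 26.4% at 72 h. Slc6a4, the serotonin transporter, was counted 23 times untreated and 95 times with butyrate at 48 h, and 44 and 35 times at 72 h, which gave 1.83 (1.20 to 2.60) and −0.20 (−0.88 to 0.47). The vesicular transporter Slc18a1, which loads serotonin into granules, was lower at both times, at −0.51 (−0.83 to −0.20) and −0.79 (−1.13 to −0.46). Ddc, which completes serotonin synthesis, stood at −0.10 (−0.24 to 0.03) and −0.49 (−0.64 to −0.34). The higher Tph1 at 48 h was therefore not shared by the transporter that loads the product: the count ratio of Tph1 to Slc18a1 went from 0.428 untreated to 1.44 with butyrate at 48 h, and from 0.757 to 0.628 at 72 h.

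The granins carried most of the counts. Chgb was counted 4051 times untreated and 6041 times with butyrate at 48 h, and 5456 and 2838 times at 72 h, and was higher with butyrate at 48 h, at 0.40 (0.35 to 0.46), and lower at 72 h, at −0.81 (−0.88 to −0.75). Chga was counted 1559 times untreated and 1839 times with butyrate at 48 h, and 1936 and 863 times at 72 h, with fold changes of 0.07 (−0.03 to 0.16) and −1.04 (−1.15 to −0.92). Both were lower at 72 h, and at 48 h only Chgb differed beyond counting error. The ratio of Chgb to Chga was higher with butyrate at both times, by 0.34 (0.23 to 0.45) and 0.22 (0.09 to 0.36). Chgb lies on chromosome 2 at 132781278-132795079 and Chga on chromosome 12 at 102554969-102565028.

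The 5 other genes of the granin family all passed the filter, with a median of −0.16 for 48 h and −0.43 for 72 h. At the later time, 2 of the 5 were lower with an interval excluding 0 and 0 were higher, against 26.4% and 25.9% of all genes. Scg3, which binds chromogranin A in the granule, was lower at both times, at −0.75 (−1.14 to −0.38) and −0.76 (−1.22 to −0.33). Pcsk1n, an inhibitor of prohormone convertase 1, stood at 0.21 (−0.11 to 0.53) and −0.62 (−0.94 to −0.31). Scg5, a chaperone of prohormone convertase 2, was higher at 48 h, at 0.92 (0.46 to 1.41), and stood at 0.23 (−0.22 to 0.68) at 72 h. The family therefore held genes of either direction at 48 h.

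Among the 10 genes, only Nts was not lower with butyrate at 72 h. It was counted 206 and 344 times in untreated cultures (48 h, then 72 h) and 370 and 327 times with butyrate. The untreated library at 48 h was low and the other 3 were alike. On the log2 scale the difference from untreated came to 0.67 (0.42 to 0.93) at 48 h and, a day later, to 0.06 (−0.17 to 0.28). The ratio of Pyy to Nts was 1.60 and 1.03 at 48 h and 1.11 and 0.388 at 72 h, a log2 change of −1.51 (−1.87 to −1.15) at 72 h. The gene lies on chromosome 10 at 102481756-102490486.

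Cck was counted 127 times untreated and 110 times with butyrate at 48 h, and 179 and 107 times at 72 h. Both butyrate libraries were below both untreated ones, with fold changes of −0.38 at 48 h, whose interval of −0.76 to −8.69e-05 reached almost to 0, and −0.61 (−0.97 to −0.26) at 72 h. Sst, the inhibitory hormone of D-cells, had 11 and 19 counts in the untreated libraries (48 h, then 72 h) but 1 and 3 in the butyrate libraries. The butyrate libraries were again the lower, at a ratio of 0.0807 (0.0019 to 0.555) at 48 h and 0.173 (0.033 to 0.587) at 72 h. Such low counts give the size of the Sst difference only within a wide range. Its direction was favoured by the filter, which Sst passed only through the untreated libraries. The genes lie on chromosome 9 at 121489824-121495694 and on chromosome 16 at 23889573-23890958.

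The 2 times were also set against each other directly. The change with butyrate was lower at 72 h than at 48 h by more than counting error for 8 of the 10 genes, against 24.3% of all genes tested. For Pyy the difference between the changes was −1.49 (−1.85 to −1.13), for Gcg −0.82 (−0.98 to −0.66), for Insl5 −1.12 (−1.54 to −0.71), for Chga −1.10 (−1.25 to −0.95) and for Chgb −1.22 (−1.30 to −1.13). Nts shared this direction, at −0.61 (−0.94 to −0.29), although it was not lower than untreated at 72 h. For Cck, at −0.23 (−0.74 to 0.27), and Sst, at 0.76 (−2.19 to 3.72), no difference between the times could be seen beyond counting error.

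The untreated libraries also differed between the times, and the comparisons over time share their libraries with those of butyrate. From 48 h to 72 h without butyrate, 0 of the 10 genes were at least 2-fold lower or higher, against 1.82% and 2.66% of all genes tested, and 6 were higher and 0 lower with an interval excluding 0, against 22.4% and 20.2%. In direction alone 0 of 10 were lower, against 49.4%, so all 10 were higher, with a median of 0.35. With butyrate, 3 genes (Pyy, Tph1 and Tac1) were at least 2-fold lower at 72 h than at 48 h, against 4.95%, and 1 (Sst, from 1 to 3 counts) was at least 2-fold higher, against 3.67%. With an interval excluding 0, 7 were lower (31.4% of all genes) and 0 were higher (30.0%), and in direction alone 7 were lower (51.2%). Over time with butyrate the log2 change was −1.33 for Pyy, −0.50 for Gcg and −0.99 for Insl5, but 0.07 (−0.15 to 0.29) for Nts and 0.21 (−0.19 to 0.61) for Cck.

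Relative to Chga, taken as a gene common to enteroendocrine cells, the hormones separated. At 72 h, Nts was higher relative to Chga by 1.09 (0.85 to 1.34), Cck by 0.43 (0.06 to 0.79) and Gcg by 0.24 (0.08 to 0.41), whereas Pyy relative to Chga changed by −0.42 (−0.73 to −0.10) and Insl5 by −0.44 (−0.79 to −0.09). Tph1 relative to Chga was higher at 48 h, by 1.16 (0.79 to 1.54), and changed by −0.02 (−0.44 to 0.40) at 72 h. Of the 9 genes compared with Chga, 3 were higher and 4 lower at 48 h with an interval excluding 0, against 22.0% and 34.8% of the 13976 other genes tested. These 4 include Sst, which passed the filter only through the untreated libraries, and without it 3 of 8 were lower. At 72 h 4 were higher and 3 lower, against 90.1% and 0.995%, and Chga itself was lower at this time. The lower hormone counts at 72 h therefore did not keep the proportions of the untreated library. Chgb as the denominator gave Gcg a change of 0.02 (−0.11 to 0.16) and Cck one of 0.20 (−0.15 to 0.55) at 72 h.

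**Figure D4:**
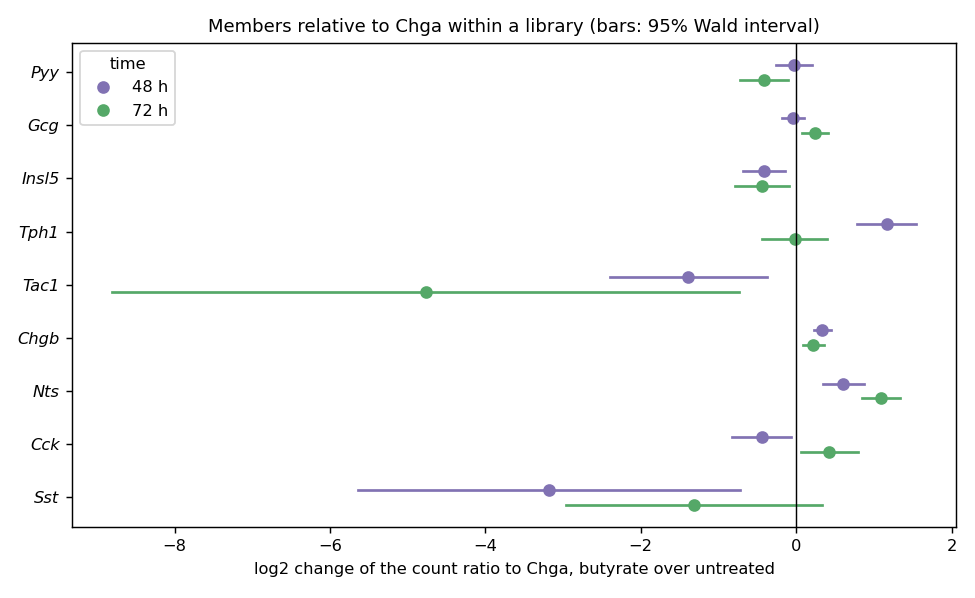
Log2 change with butyrate of the count ratio of each gene to Chga within a library, at 48 h (purple) and 72 h (green), with 95% Wald intervals after adding 0.5 to each count. Of the genes whose interval excludes 0 at 72 h, Nts, Cck, Gcg and Chgb lie right of 0, and Pyy, Insl5 and Tac1 lie left of it. The 72 h intervals of Sst, at −1.31, and Tph1, at −0.02, include 0.

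Of 8 listed genes that process and store peptide hormones, 7 passed the filter, with a median of 0.23 for 48 h and −0.18 for 72 h (from −0.89 to 0.08), and 2 of them were lower at 72 h with an interval excluding 0 and 0 were higher, against 26.4% and 25.9% of all genes, so the lower count was near that of genes in general. Pcsk1, the convertase that cuts proglucagon to glucagon-like peptides, had 745 and 686 counts at 72 h, a fold change of 0.01 (−0.14 to 0.16), beside −0.79 for Gcg. Cpe, the carboxypeptidase that trims the cut peptides, was at −0.51 (−0.66 to −0.36) at this time, and Ptprn2, a granule membrane protein, at −0.89 (−1.05 to −0.73). Pam, which amidates peptides such as PYY, was at −0.03 (−0.15 to 0.08).

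Of 11 transcription factors of the enteroendocrine lineage, all tested, 10 were lower with butyrate at 48 h and 10 at 72 h, 7 of them with an interval excluding 0 at each time, and the medians were −0.65 and −0.50. Of all genes tested, 51.3% were lower at 48 h and 49.7% at 72 h, and 31.3% and 26.4% with an interval excluding 0. At 48 h, the list's median was thus lower while that of the hormone genes was near 0. Insm1 was at −1.39 (−1.69 to −1.11) and −0.50 (−0.75 to −0.27), Neurod1 at −0.41 (−0.67 to −0.15) and −0.78 (−1.09 to −0.48), Nkx2-2 at −0.71 (−1.11 to −0.33) and −1.29 (−1.79 to −0.84), and Pax6 at −0.96 (−1.65 to −0.35) and −0.48 (−1.06 to 0.08). Neurog3, the factor of the early progenitor, was the exception at both times, at 0.10 (−0.09 to 0.29) and 0.28 (−0.02 to 0.58). Of 9 receptor and channel genes only Ffar1, Ffar2 and Ffar4 passed the filter. Ffar2, a receptor for short-chain fatty acids including butyrate, was counted 139 times untreated and 84 times with butyrate at 48 h, and 92 and 32 times at 72 h, lower at both times, at −0.89 (−1.31 to −0.50) and −1.37 (−2.02 to −0.80), whereas Ffar4, a long-chain fatty acid receptor, was higher at 0.42 (0.23 to 0.60) and 0.29 (0.11 to 0.47). Ffar1, also a receptor for long-chain fatty acids, was lower at 48 h, at −0.98 (−1.89 to −0.19), and stood at 0.18 (−0.38 to 0.75) at 72 h.

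Of 14 further gut hormone genes 4 passed the filter. Sct, the secretin gene, resembled Chga, being counted 67 and 82 times untreated (48 h, then 72 h) and 82 and 39 times with butyrate, at 0.12 (−0.36 to 0.61) and −0.93 (−1.53 to −0.38). Ppy, which encodes pancreatic polypeptide, a relative of PYY, was counted 20 times untreated and 50 times with butyrate at 48 h, and 5 and 23 times at 72 h, and was higher at both times, at 1.11 (0.38 to 1.98) and 2.12 (0.90 to 4.08). Adm, which encodes adrenomedullin, was counted 194 and 87 times untreated (48 h, then 72 h) and 243 and 185 times with butyrate, and stood at 0.15 (−0.13 to 0.43) and 1.21 (0.84 to 1.60). Gal, the galanin gene, had 17 and 7 counts untreated and 13 and 19 with butyrate, at −0.52 (−1.72 to 0.57) and 1.44 (0.26 to 3.06). So 3 of the 4 genes were higher at 72 h with an interval excluding 0, against 25.9% of all genes tested. The untreated library at 72 h was the lowest of the 4 for each of these 3: from 48 h to 72 h the untreated change was −1.85 (−3.82 to −0.59) for Ppy, −1.20 (−1.59 to −0.84) for Adm and −1.22 (−2.84 to 0.01) for Gal, and with butyrate Adm changed by −0.14 (−0.43 to 0.14).

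Markers of other epithelial cells also differed between these libraries. With butyrate at 72 h, 7 of 8 goblet markers were lower (median −0.83) and 4 of 4 tuft markers (median −1.32), each of these with an interval excluding 0, while 5 of 5 stem markers were higher (median 0.62). Of all genes tested at 72 h, 26.4% were lower and 25.9% higher with an interval excluding 0. At 48 h the medians were −0.18, −0.24 and −0.14. For the colonocyte markers the median was 0.72 at 48 h and −0.44 at 72 h, opposite directions as for Tph1. With an interval excluding 0, 5 of these 6 were higher at 48 h, against 29.3% of all genes, and 5 of 6 lower at 72 h; Aqp8 was at 0.08 (−0.10 to 0.26) and −0.03 (−0.18 to 0.12). The colonic epithelial markers had medians of 0.02 and −0.17. The summed normalised counts were 114554 and 92691 at 48 h and 167126 and 90757 at 72 h for goblet markers, 422 and 348 and then 458 and 161 for tuft markers, and 31241 and 61693 and then 48382 and 29232 for colonocyte markers. Their part in the hormone values was not tested.

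**Figure D5:**
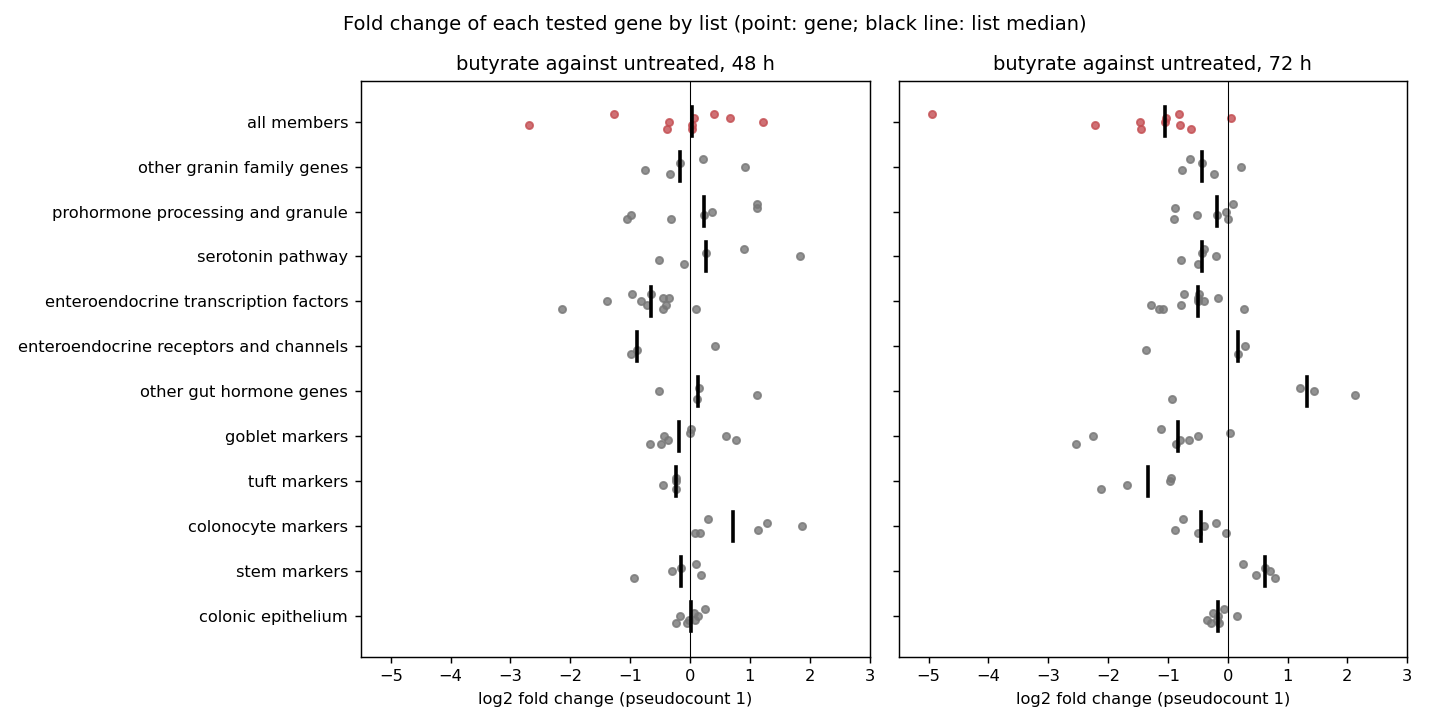
Log2 fold change of butyrate over untreated for every tested gene of each list at 48 h and 72 h, 1 point per gene, with the list median as a black line and the 10 hormone and granin genes in red. At 72 h the median of the red points is −1.04, those of the processing and granin family lists are −0.18 and −0.43, and that for the stem markers is 0.62.

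The genes most like Pyy, Chga and Tph1 were found by the Euclidean distance between log2 profiles over the 4 libraries, each centred on its mean, among the 11647 genes that averaged 50 or more normalised counts. Nearest to Pyy were Gm37240, Rep15, Gm6169, Hsd11b2 and Tm6sf2, at distances of 0.162 to 0.279. Insl5 was the 10th nearest to Pyy, at 0.316, Chga the 26th, Chgb the 124th and Gcg the 165th. Tph1 was the 1111th, Cck the 3546th and Nts the 9985th. Nearest to Chga were Bace2, Fcgbp, Suox, Fahd1 and Sct (0.065 to 0.0853), which include a goblet marker and the secretin gene. Nearest to Tph1 were Car1, Plscr4, Abat, Lyve1 and Ces1f (0.137 to 0.370), the first of them a colonocyte marker, counted 19941 and 35077 times untreated and 49510 and 17453 times with butyrate. With 4 points to a profile, many genes lie close to any of these patterns.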

How the data were processed

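The authors deposited counts per gene for 4 bulk RNA-seq libraries of mouse colonoids: poly-A libraries quantified by kallisto 0.44.0 pseudoalignment and summed to genes with tximport, with GRCm38.p6 named as the build in the submitters' processing notes. The counts are whole numbers with no normalisation or filter. In R 4.3.3, DESeq2 1.42.0 gave the size factors and edgeR 4.0.16 the TMM factors, over genes above 10 counts in 2 or more libraries. Fold changes used a pseudocount of 1 with exact Clopper-Pearson 95% intervals on pairs of counts, and ratios and differences between times used Wald intervals with 0.5 added. Reads carry no molecular identifiers, so the intervals express counting error alone. Lengths and positions came from GENCODE (GRCm38), matched by symbol for 35907 names, and promoters from RefSeq. The other steps used Python 3.11.15 (scipy 1.17.1, pandas 2.3.3, numpy 2.4.6, matplotlib 3.10.9). The intervals were tested only on simulated Poisson counts, the error they assume, so that test cannot cover variation between cultures.

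The 10 genes and the gene lists were chosen with earlier results of these data known. The genes named are these 10, listed genes past the filter (Slc18a2, Tph2, Csf1r and the neuron markers at 0 are named to give their counts), markers of other cell types, and the 5 genes nearest in profile to Pyy, Chga and Tph1. A member each of the epithelial and the neuron and glia lists is not reported here and was left out of both. Alternatives were TMM or total count scaling, a pseudocount of 5, other filters, a 1.5-fold threshold, Chgb as the denominator and other lengths.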

Additional observations from a re-analysis of the deposited data

Results flagged for a closer look

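For 5 genes the change with butyrate had opposite signs at the 2 times, which drew attention to them; with 1 library per condition the difference between times was not tested against replicate error. For Tph1 the log2 fold change was 1.22 at 48 h and −1.05 at 72 h, and for Chgb it was 0.40 and −0.81; these are the 2 genes whose counting intervals exclude 0 at both times. For Pyy the values were 0.039 and −1.45, for Gcg 0.028 and −0.79, and for Chga 0.066 and −1.04, and the 48 h intervals of these 3 genes include 0, so that their opposite sign is within counting error.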

How the results depend on the processing

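No paired analysis was possible because no condition has numbered replicates to pair, and a fit with the 2 times as pairs, which would count their difference as error, was not run. Of 160 recomputed fold changes of the 10 genes (TMM factors, total count scaling, a pseudocount of 5, no filter), 158 stayed within their counting interval and 0 changed sign; Chgb in untreated colonoids over time was 0.30 with total counts, and Tac1 at 72 h was −2.79 with a pseudocount of 5. With total counts 4 of the 10 genes, in place of 6, were at least 2-fold lower with butyrate at 72 h, and 4 in place of 3 over time with butyrate, where a pseudocount of 5 left 0 in place of 1 at least 2-fold higher. Of 216 list medians 3 changed sign: over time in untreated colonoids, that of the transcription factors was −0.026 and that of the epithelial markers −0.058 with total counts, and that of Tph1 and Tac1 at 48 h was 0.079 with a pseudocount of 5. Total count scaling moved the median of all genes to between −0.07 and 0.05.

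The number of genes at least 2-fold lower and higher depended on threshold and filter. At 1.5-fold it was 1244 and 1837 for butyrate at 48 h, 1192 and 1328 at 72 h, 723 and 953 over time untreated and 1663 and 1351 over time with butyrate. Over genes averaging 50 or more normalised counts it was 179 and 458, 187 and 270, 97 and 88, and 292 and 191, in the same order, and a pseudocount of 5 gave 167 and 229 over time untreated. For butyrate at 72 h, 9 of the 10 genes passed 1.5-fold lower (8.53% of all genes), and 4 of the 8 with a mean of at least 50 were 2-fold lower (1.61%).

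Of 40 ranks of level, 20 moved without a length correction and 9 with the length of the first listed transcript, an alternative chosen after seeing the data. Of 16 ratios, 5 moved past their interval with Chgb in place of Chga: Pyy at 48 h −0.37, Gcg −0.38 and 0.02 at 48 h and 72 h, Insl5 at 48 h −0.75 and Nts at 48 h 0.27. Without Sst, also chosen after seeing the data, 3 of 9 genes were lower with butyrate at 48 h and 8 of 9 at 72 h. Depth limits Sst and Tac1, whose butyrate libraries hold at most 11 counts.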

Other observations

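Among the immune markers, Cd3e and Cd79a had at most 5 counts and Ptprc between 5 and 15. Cd68, a lysosomal gene best known from macrophages, was counted 128 and 172 times in untreated cultures (48 h, then 72 h) and 1309 and 420 times with butyrate. On the log2 scale the difference from untreated came to 3.17 (2.92 to 3.46) at 48 h and, a day later, to 1.41 (1.16 to 1.68). Csf1r, a macrophage receptor, had 1 and 0 counts in the untreated libraries (48 h, then 72 h) and 2 and 16 with butyrate.

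Among the stem markers, the Wnt target and stem-cell receptor Lgr5 was counted 7380 times untreated and 4341 times with butyrate at 48 h, and 5108 and 8068 times at 72 h, which on the log2 scale is −0.94 (−0.99 to −0.88) and then 0.79 (0.74 to 0.84). Tph2, the neuronal tryptophan hydroxylase, was at 0 in 3 libraries and at 8 counts in butyrate-treated colonoids at 72 h.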
